A study of Mus musculus with 6 samples.

Results

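The annexin A genes code for proteins that bind phospholipid membranes when calcium rises. Messenger RNA of 10 of these genes was followed in the bladders of mouse embryos at stage E14.5 (days of gestation), in samples with the transcription factor gene Klf5 deleted and in controls. The genes were Anxa1, Anxa2, Anxa3, Anxa4, Anxa5, Anxa6, Anxa7, Anxa8, Anxa9 and Anxa11, chosen by their symbol among 19938 genes with a single annotated symbol on the array. All 10 were measured, each by the array feature with the highest mean over the 6 arrays. Only Anxa6 had a choice of features, 1 with a mean log2 level of 12.9 and another with a mean of 7.65. The array also carried Anxa10 and Anxa13, 2 family members outside the 10.

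Bladders of the mutant group came from Klf5Δ/Δ embryos, in which both alleles of Klf5 carry a deletion, and are called Klf5-deleted here. The control bladders came from Klf5+/+ ShhGfpCre+ embryos, which have intact Klf5 and an allele that makes a fusion of green fluorescent protein and Cre recombinase in cells expressing Shh, among them the epithelium of the bladder. The labels name the Cre allele for controls only; the deletion was taken to be made by the same Cre and so to be confined to the Shh lineage, with Klf5 kept in the other cells. Each genotype had 3 samples, each a pool of 2 bladders, on 1 Affymetrix Mouse Gene 1.0 ST array per sample. The values are RMA expression levels on the log2 scale, on which a difference of -1 is a halving, and differences are Klf5-deleted minus control.

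Annexins share a core of folded repeats that bridges calcium and acidic phospholipids at the inner face of the membrane, and each has its own amino-terminal tail that binds partners such as the small S100 proteins. They are known for organizing membranes during secretion, endocytosis and the repair of membrane tears. In epithelia several annexins lie under the cell surface. The urothelium lines the bladder and delivers large amounts of membrane to its apical face, and Klf5 is a zinc-finger factor active in it.

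The 3 annexin genes past the test, Anxa9, Anxa8 and Anxa1, are shown by the promoter window of their RefSeq start (GRCm38.p6, 250 bases before to 50 after the start, written along the gene's strand). These windows lie at chr3:95315131-95315430 on the minus strand for Anxa9, chr14:34085729-34086028 on the plus strand for Anxa8, and chr19:20390622-20390921 on the minus strand for Anxa1. Capitals mark CACCC (or GGGTG on the other strand), the core of the boxes that Kruppel-like factors are known to bind, CCGCCC (or GGGCGG), the GC box, and TATAAA (or TTTATA), the TATA box.
Anxa9: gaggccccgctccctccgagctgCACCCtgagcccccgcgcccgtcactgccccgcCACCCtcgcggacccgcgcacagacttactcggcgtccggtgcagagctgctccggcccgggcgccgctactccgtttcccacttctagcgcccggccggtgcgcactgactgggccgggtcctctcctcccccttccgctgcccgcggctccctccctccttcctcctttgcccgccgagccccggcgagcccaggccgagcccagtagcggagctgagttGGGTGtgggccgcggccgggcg
Anxa8: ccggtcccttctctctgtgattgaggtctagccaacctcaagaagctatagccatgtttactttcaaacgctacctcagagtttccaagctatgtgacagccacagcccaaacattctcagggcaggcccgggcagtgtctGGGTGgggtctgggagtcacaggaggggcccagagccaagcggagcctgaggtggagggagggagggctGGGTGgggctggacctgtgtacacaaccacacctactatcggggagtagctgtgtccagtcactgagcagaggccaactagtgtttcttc
Anxa1: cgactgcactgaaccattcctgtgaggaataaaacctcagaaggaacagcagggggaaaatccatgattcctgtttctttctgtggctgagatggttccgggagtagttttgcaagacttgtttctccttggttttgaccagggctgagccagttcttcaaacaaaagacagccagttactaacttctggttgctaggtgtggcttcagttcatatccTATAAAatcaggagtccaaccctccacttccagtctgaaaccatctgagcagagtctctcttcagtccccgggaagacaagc

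The Anxa9 window held CACCC 3 times, the Anxa8 window held it 2 times, and the Anxa1 window held no CACCC but 1 TATAAA that begins 32 bases before the start. None of these 3 windows held CCGCCC. RefSeq promoter windows were given for 8 of the 10 genes, with 11 windows in all, and none was available here for Anxa3 and Anxa6. CACCC was in 9 of the 11 annexin windows, against 57.5% of 32841 windows of the same length over all genes. CCGCCC was in 5 of 11 windows, against 35.7% of all windows, and TATAAA in 2 of 11, against 13.6%. The share of G and C bases ran from 43% to 75.7% over the annexin windows, against a median of 52.7% over all windows. The motif counts were not adjusted for that share. The 2 windows of Anxa7 overlap each other, so that a CACCC and a CCGCCC in the shared stretch count in both. CACCC and CCGCCC overlapped at 1 place, in the window of Anxa11. A second RefSeq start of Anxa9 had none of the 3 motifs in its window. Every window of a gene that did not pass the test held CACCC. It was there 4 times for Anxa2, 1 time for Anxa5 and 2 times for Anxa11. The 2 windows of Anxa4 held it 2 times and 1 time, and those of Anxa7 held it 1 time and 3 times. These matches describe letters only, and binding was not measured.

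The arrays were first checked by the targeted gene and by markers. Klf5 read 10.12, 10.34 and 10.23 in Klf5-deleted bladders, against 10.84, 10.63 and 10.97 in control bladders, a difference of -0.59 (SE 0.10, adjusted p = 0.0381 by limma). That call was lost when any array other than control 2 was left out (adjusted p of 0.0847 to 0.156 by limma). It was also lost with arrays centred on housekeeping genes, with all features tested and with the replicate number as a block. The adjusted p-values by limma there were 0.056, 0.102 and 0.137. Klf5 passed in 7 of 15 alternatives. The labels give urothelium as the source and the protocol whole bladders. Vim, an intermediate filament of mesenchyme, read 13.59 to 13.74 in Klf5-deleted and 13.69 to 13.81 in control bladders, and the smooth muscle gene Synpo2 read 11.33 to 11.42 in Klf5-deleted and 11.69 to 11.85 in control bladders, where the median of an array lay between 7.68 and 7.80. Control 2 stood apart: the summed linear level of 9 placental and decidual genes was 26164 on it, against 465 as the lowest control and 521 to 10061 over the Klf5-deleted arrays.

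Messages of Anxa9, Anxa8 and Anxa1 fell in the Klf5-deleted bladders, and no annexin message rose. Of the 10 genes 3 fell and 7 did not pass an adjusted p of 0.05 by limma; over all 19938 genes 1.59% fell and 0.386% rose. The share of all genes that fell was 0.622%, 0.747% and 1.03% when array 1, 2 or 3 of the Klf5-deleted group was left out, and 0.732%, 1.43% and 1.16% when array 1, 2 or 3 of the controls was left out. The family was proposed with earlier results of these data known, so its count is a description. The median difference of the 10 genes was -0.32, against -0.01 over all genes, and 9 of the 10 differences were negative, against 53.5% of all genes. Differences ran from -1.35 for Anxa9 to 0.10 for Anxa3, and whether members differed from each other in their change was not tested. Every Klf5-deleted array lay below every control array for 6 of the 10 genes, against 11.8% of all genes. At an unadjusted p under 0.05 there were 6 members, against 14.4% of all genes. The same 3 genes passed without control 2.

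**Figure D1:**
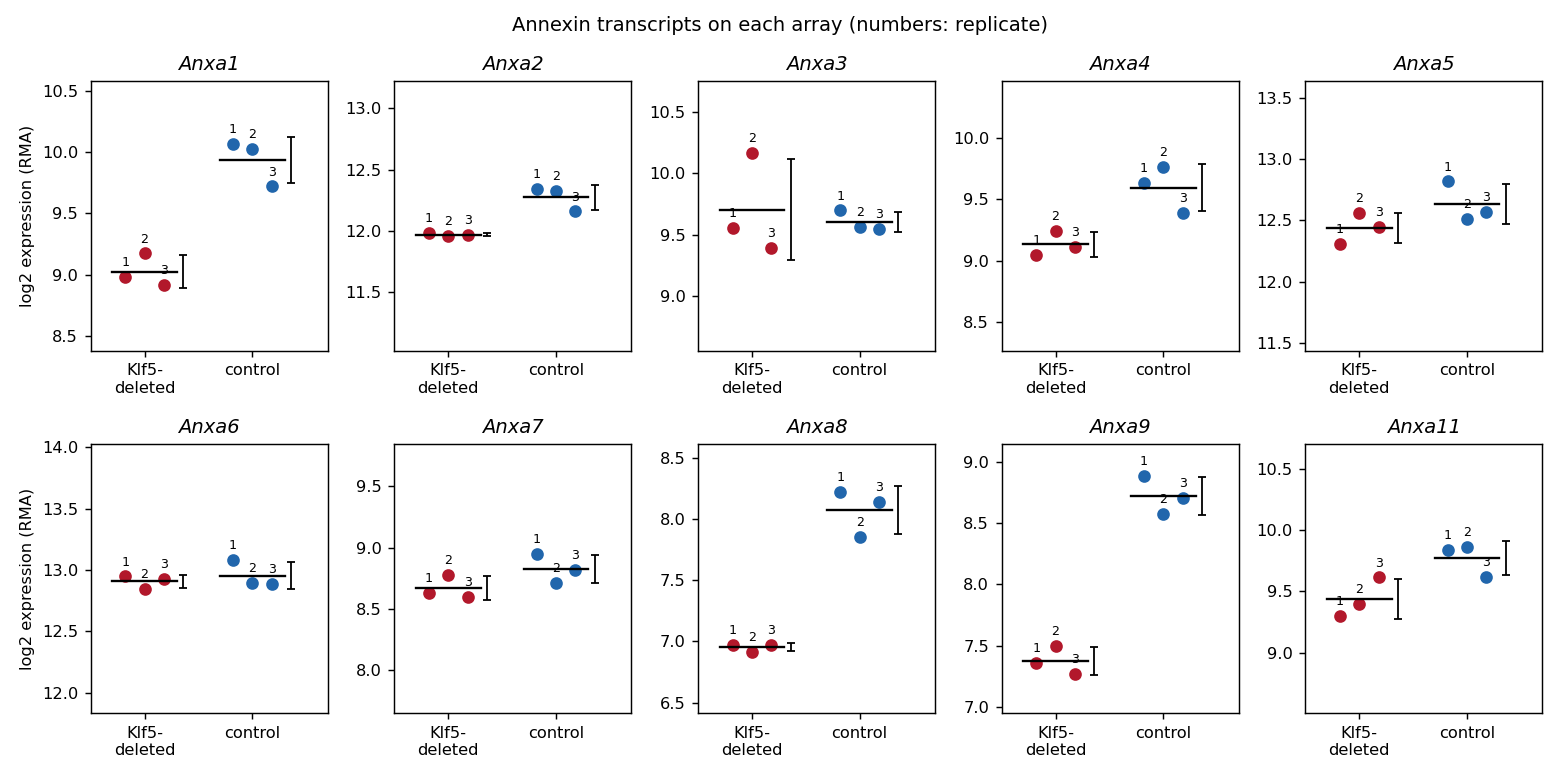
Log2 expression of the 10 annexin genes on each array, with Klf5-deleted samples in red and control samples in blue, replicate numbers beside the points, a line at each group's mean and a bar of 1 SD; each vertical axis spans the same number of log2 units. The groups stand farthest apart for Anxa9, Anxa8 and Anxa1, and Klf5-deleted 2 stands above the other arrays for Anxa3 at 10.17.

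Anxa9 is an annexin of keratinocytes and other epithelia whose calcium-binding sites have degenerated. It read 7.36, 7.49 and 7.27 in the 3 Klf5-deleted samples, against 8.88, 8.58 and 8.70 in the 3 controls. The highest Klf5-deleted array was 1.08 below the lowest control array. The group means were 7.37 ± 0.12 in Klf5-deleted and 8.72 ± 0.15 in control bladders (SD, n = 3 each), a 2.55-fold lower level. The difference was -1.35 (SE 0.10, 95% interval -1.58 to -1.12, adjusted p = 0.0014 by limma), and it was larger than the spread within either group.

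Anxa8, an annexin of stratified epithelia that was described as an inhibitor of blood clotting, read 6.97, 6.92 and 6.97 in Klf5-deleted samples, against 8.22, 7.85 and 8.14 in controls. The Klf5-deleted arrays were nearly equal to each other and all lay below the controls. Their SD was 0.03, against 0.19 among controls. The gene was 2.17-fold lower, with a difference of -1.12 (SE 0.10, 95% interval -1.35 to -0.88, adjusted p = 0.00275 by limma). The Klf5-deleted values of Anxa8 and Anxa9 lie under the median of their arrays. Whether a feature exceeded its background cannot be read from these values, and RMA tends to shrink differences at low signal.

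Anxa1, also named lipocortin, is induced by glucocorticoids, restrains phospholipase A2 and signals through formyl peptide receptors on leukocytes. Its level was 8.99, 9.17 and 8.92 in Klf5-deleted samples, against 10.06, 10.02 and 9.72 in controls, with no overlap. It was 1.88-fold lower, with a difference of -0.91 (SE 0.11, 95% interval -1.18 to -0.65, adjusted p = 0.00982 by limma). Without Klf5-deleted 1 the difference was -0.89 and the adjusted p was 0.0599 by limma, so that the gene did not pass. Leaving out any other array kept the call.

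Anxa2 pairs with S100a10 at the cell surface and binds plasminogen and its activator. It read 11.98, 11.96 and 11.97 in Klf5-deleted samples, against 12.34, 12.32 and 12.16 in controls. The Klf5-deleted arrays agreed within an SD of 0.01 and lay below every control, but the call was missed: the difference was -0.31 (SE 0.07, adjusted p = 0.093 by limma). RefSeq also lists a pseudogene of Anxa2, and whether the feature takes signal from it was not analysed here.

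Anxa4 and Anxa7 are annexins of secretory membranes. Anxa4, found in many secretory epithelia, read 9.05, 9.24 and 9.11 in Klf5-deleted samples, against 9.64, 9.76 and 9.39 in controls. The groups did not overlap, yet the difference of -0.46 (SE 0.11) did not pass, with an adjusted p of 0.0945 by limma. Anxa7, the synexin of chromaffin granule fusion, read 8.63, 8.78 and 8.60 in Klf5-deleted samples, against 8.95, 8.72 and 8.82 in controls. The Anxa7 groups overlapped, through Klf5-deleted 2 and control 2, and the difference of -0.16 (95% interval -0.36 to 0.04) did not pass.

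Anxa11 has a long flexible tail and is known to tether RNA granules to lysosomes. It read 9.30, 9.39 and 9.61 in Klf5-deleted samples, against 9.84, 9.87 and 9.62 in controls. Klf5-deleted 3 and control 3 were almost equal, at a gap of 0.0012, so the absence of overlap rests on that gap. The difference was -0.34 (SE 0.11, adjusted p = 0.202 by limma).

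Anxa5 and Anxa6 coat membranes that expose acidic lipids; Anxa5 is the protein used to stain dying cells and Anxa6 carries a duplicated core. Anxa5 read 12.31, 12.56 and 12.45 in Klf5-deleted samples, against 12.82, 12.51 and 12.57 in controls, and the groups overlapped. Its difference was -0.19 (95% interval -0.44 to 0.05), and -0.10 without control 1. Anxa6 read 12.95, 12.85 and 12.93 in Klf5-deleted samples, against 13.08, 12.89 and 12.88 in controls. The Anxa6 groups overlapped with a difference of -0.04 (95% interval -0.22 to 0.13). The other Anxa6 feature differed by 0.21, with 7.61, 7.68 and 7.97 in Klf5-deleted samples against 7.35, 7.59 and 7.68 in controls, and the mean of both features differed by 0.08, opposite in sign to the chosen one.

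Anxa3, an annexin of neutrophil granules and of some epithelia, was the only member with a positive difference. It read 9.55, 10.17 and 9.39 in Klf5-deleted samples, against 9.70, 9.56 and 9.55 in controls. The Klf5-deleted values straddled the controls through Klf5-deleted 2. The Klf5-deleted SD of 0.41 was the highest within-group SD of any member, against 0.08 among controls. The difference was 0.10 (SE 0.19, 95% interval -0.33 to 0.54), and it was -0.13 without Klf5-deleted 2. Among the Klf5-deleted arrays, this array was also the highest for 9 of 9 placental and decidual genes, with a summed linear level of 10061 against 3346 and 521. It was the highest for 11 of 18 general epithelial genes, with a summed level of 13483 against 10938 and 12703. The part of either list in the Anxa3 value was not tested.

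**Figure D2:**
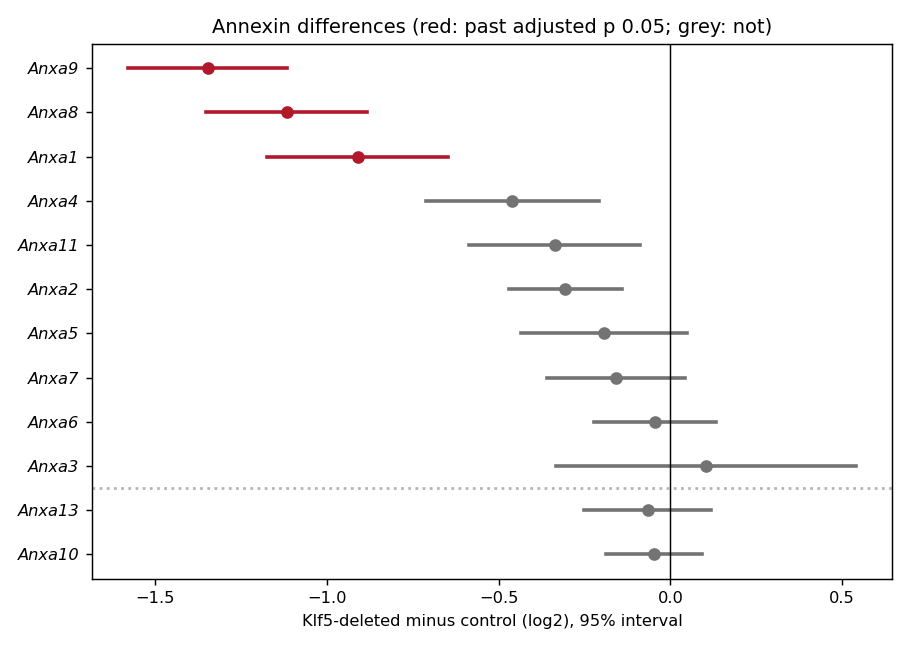
Klf5-deleted minus control difference of each annexin gene on the log2 scale with its 95% interval from limma; red marks an adjusted p under 0.05, and the 2 genes under the dotted line are outside the 10. Anxa9 at -1.35, Anxa8 at -1.12 and Anxa1 at -0.91 stand apart from the rest, whose differences lie between -0.46 and 0.10.

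The family members outside the 10 showed no change past the test. Anxa10, known in humans from the epithelium of stomach and bladder, read between 5.47 and 5.54 in Klf5-deleted samples, against 5.51 to 5.58 in controls. Anxa13, an annexin of intestine and kidney, read between 5.78 and 6.01 in Klf5-deleted samples, against 5.92 to 6.03 in controls. Their differences were -0.05 and -0.07, and both pairs of groups overlapped.

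Leaving out each array in turn kept the Anxa9 difference between -1.42 and -1.27 and the Anxa8 difference between -1.23 and -1.04. Both genes passed in each of these 6 fits. The Anxa4 difference ran from -0.56 without control 3 to -0.38 without control 2, and the gene passed in none of them, with an adjusted p down to 0.0525 by limma. Without control 1 Anxa6 changed sign, to 0.02, and Anxa7 differed by -0.10.

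**Figure D3:**
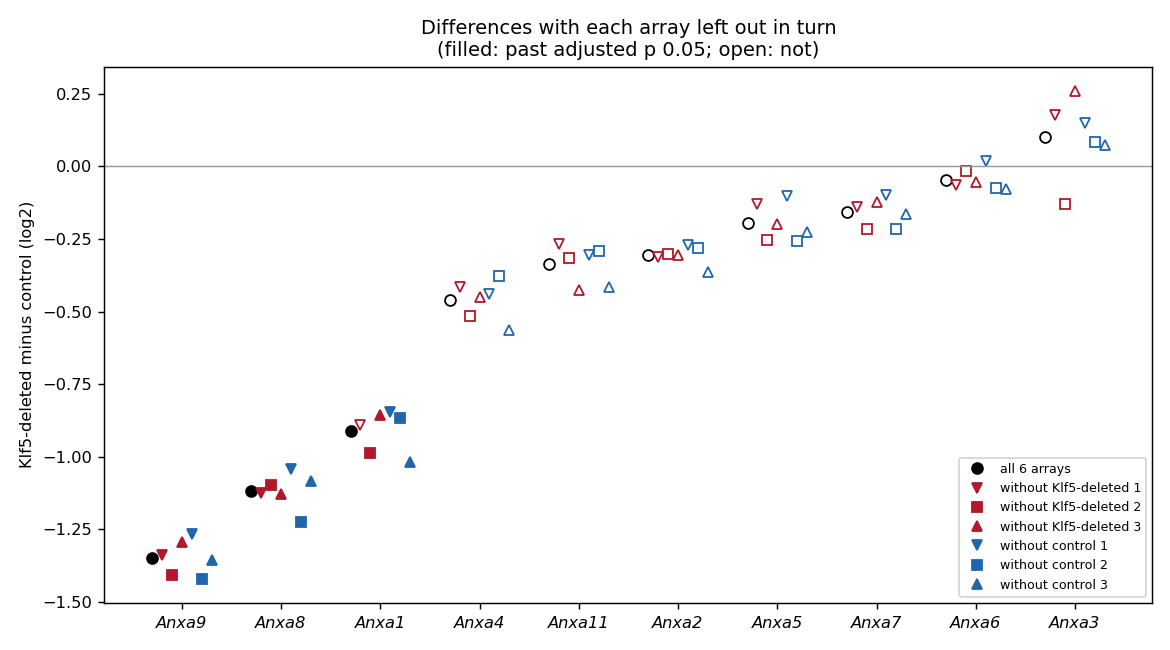
Differences of the 10 genes on the log2 scale with all 6 arrays (black) and with each Klf5-deleted array (red) or control array (blue) left out; filled symbols passed an adjusted p of 0.05. Anxa9 and Anxa8 stay filled in all fits, Anxa1 opens without Klf5-deleted 1, and Anxa3 crosses 0 without Klf5-deleted 2.

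Proteins known to work with annexins were described from a list of 13 genes, of which 11 were measured. Of these 2 fell, S100a6 and S100a1, none rose and 9 did not pass, where 1.59% of all genes fell and 0.386% rose. S100a6, or calcyclin, a calcium sensor that binds Anxa2, Anxa6 and Anxa11, read 8.03, 8.43 and 8.56 in Klf5-deleted samples, against 10.31, 10.26 and 10.04 in controls. Its groups were 1.48 apart at the nearest arrays, and its difference of -1.86 (SE 0.14, adjusted p = 0.00156 by limma) was larger in size than that of any annexin here; the gap between the genes was not tested. S100a1, a sensor of striated muscle that binds Anxa6, read 9.29, 8.90 and 9.15 in Klf5-deleted samples, against 9.74, 10.03 and 9.76 in controls, a difference of -0.73 (SE 0.12, adjusted p = 0.0316 by limma). The S100a1 call was lost in each fit that left out 1 array, with adjusted p of 0.0528 to 0.0864 by limma. The median of the 11 genes was -0.17, against -0.01 over all genes.

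S100a10 and S100a11, which bind the tails of Anxa2 and Anxa1, did not pass. S100a10, the partner of Anxa2, read 11.79, 12.53 and 12.05 in Klf5-deleted samples, against 12.22, 12.42 and 12.24 in controls, with the highest value of all on Klf5-deleted 2. Its difference was -0.17 (95% interval -0.58 to 0.24), but -0.0024 without Klf5-deleted 1 and -0.38 without Klf5-deleted 2. S100a11, the partner of Anxa1, read 12.77, 12.80 and 12.82 in Klf5-deleted samples, against 13.17, 12.87 and 12.95 in controls. The S100a11 groups did not overlap, and the difference of -0.20 (SE 0.09) had an adjusted p of 0.358 by limma.

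Plat, the tissue plasminogen activator that Anxa2 binds, had a difference of the opposite sign. It read 10.11, 10.30 and 10.52 in Klf5-deleted samples, against 9.67, 9.86 and 9.61 in controls, without overlap. Its difference of 0.60 (SE 0.12) had an adjusted p of 0.054 by limma over all arrays and of 0.0488 without control 2; the gene passed in 4 of 15 alternatives, with adjusted p from 0.036 to 0.184 by limma. Pla2g4a, the cytosolic phospholipase A2 that Anxa1 restrains, differed by 0.03 (SE 0.09). Sri and Pdcd6, partners of Anxa7 and Anxa11, differed by -0.08 and -0.01. The scaffold gene Ahnak, which joins Anxa2 and S100a10 at the membrane, differed by -0.28 (SE 0.08, adjusted p = 0.166 by limma).

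Of 18 listed genes of membrane repair and calcium-dependent membrane binding, 17 were measured, 1 fell, none rose and 16 did not pass. Among all genes the shares were 1.59% for falls and 0.386% for rises. The median of the list was -0.04, against -0.01 over all genes. The gene that fell was Capn1, the large subunit of calpain 1, a calcium-activated protease that acts in membrane repair. Capn1 read 9.65, 9.59 and 9.71 in Klf5-deleted samples, against 10.50, 10.30 and 10.36 in controls. The groups lay 0.59 apart, and the difference was -0.74 (SE 0.08, adjusted p = 0.00477 by limma). Its small subunit gene Capns1 differed by -0.05 (SE 0.07) and Capn2, the large subunit of calpain 2, by -0.05 (SE 0.07). The ferlin genes Dysf and Myof, which code for membrane repair proteins, differed by -0.14 and -0.36 without passing.

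**Figure D4:**
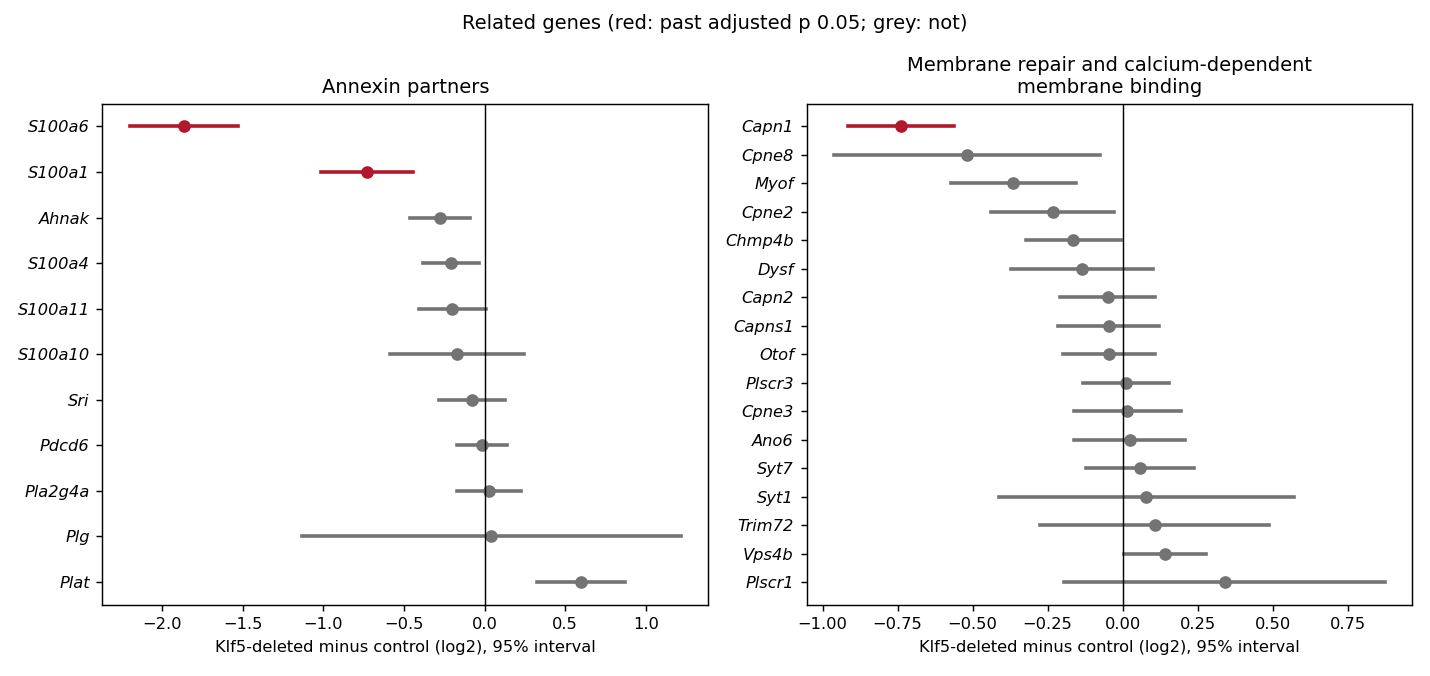
Klf5-deleted minus control differences on the log2 scale with 95% intervals for 11 annexin partner genes (left) and 17 genes of membrane repair and calcium-dependent membrane binding (right); red marks an adjusted p under 0.05. S100a6 at -1.86, S100a1 at -0.73 and Capn1 at -0.74 passed, and Plat at 0.60 lies at the other end.

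Epithelial markers moved in the same direction as Anxa9, Anxa8 and Anxa1. Of 18 general epithelial genes 13 fell, none rose and 5 did not pass, or 9 falls with control 1 left out, with a median of -1.34 and a summed linear level of 10938 to 13483 in Klf5-deleted and 27067 to 32858 in control bladders. Of 13 urothelial genes 9 fell and none rose, with a median of -1.78 and a summed level of 8081 to 8847 in Klf5-deleted and 20371 to 28654 in control bladders. Krt8 and Krt18, keratins of simple epithelium, fell by 1.77 and fell by 1.52, and Upk2, a uroplakin of the urothelial surface, fell by 3.19. The lowest value of any feature was 3.24. No background call could be made, so these levels cannot show whether a marker message was present or absent. In whole bladders, fewer cells of a type and less RNA per cell cannot be told apart.

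Among the 5 general epithelial genes that did not pass, Epcam differed by -0.39 (95% interval -0.93 to 0.16), the basal keratin gene Krt5 by -0.10 (95% interval -0.87 to 0.68) and Trp63, the p63 factor of basal cells, by -0.24 (95% interval -0.50 to 0.02). Cldn3 and Cldn7, claudins of tight junctions, differed by -0.29 and -0.76. The intervals of Epcam, Krt5 and Trp63 include 0, and those of Epcam and Krt5 span more than 1 log2 unit. Krt5 read 10.49, 10.49 and 10.38 in Klf5-deleted samples, against 9.85, 11.37 and 10.44 in controls. Its SD was 0.77 among controls and 0.07 among Klf5-deleted samples, and its highest value was on control 2, so the sign of its difference depends on that array.

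Apart from the mesothelial list, lists for other cell types held few calls. None of 12 mesenchymal, 10 endothelial and 11 leukocyte genes passed, and their medians were -0.03, -0.17 and -0.19; without control 2 the leukocyte median was 0.02. Of 12 smooth muscle genes Synpo2 fell and 11 did not pass, with a median of -0.27, and all 12 differences were negative. Synpo2 passed in no fit that left out 1 array (adjusted p of 0.0756 to 0.181 by limma). Differences were also negative for 8 of the 12 mesenchymal, 9 of the 10 endothelial and 10 of the 11 leukocyte genes. Msln and Krt19 fell and Wt1 rose among 7 mesothelial genes, of which Krt19 is also in the epithelial list and Upk3b in the urothelial one. The mesothelial median was 0.36, with 4 of the 7 genes higher and 3 lower. Wt1 kept its call without control 2 and in no other fit that left out 1 array, with adjusted p up to 0.147 by limma. The leukocyte sum was 4610 to 5202 in Klf5-deleted and 4577 to 7983 in control bladders, with the highest on control 2. None of 6 erythroid, 8 nerve and glia, 10 skeletal muscle, 9 placental and decidual and 7 yolk sac genes passed. The skeletal muscle median was 0.63, with 9 of 10 genes higher, and the erythroid median 0.26, with 6 of 6 higher; without control 2 these medians were 0.86 and 0.67. The medians of nerve and glia and of yolk sac were 0.11 and -0.05 over all arrays, and 0.31 and 0.64 when control 2 was left out. The placental and decidual median was -0.93 and turned to 0.93 without control 2. The part of these cell types in the annexin values was not tested; Anxa9, Anxa8 and Anxa1 differed by -1.42, -1.23 and -0.87 without control 2.

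**Figure D5:**
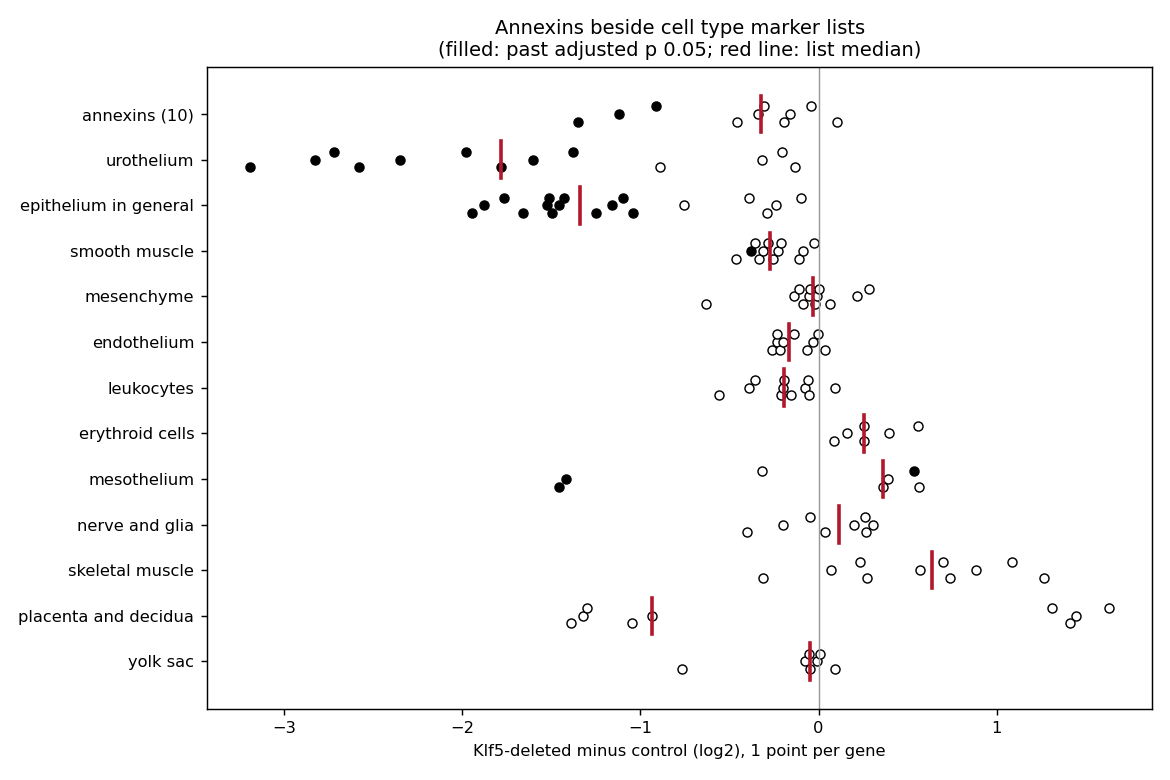
Klf5-deleted minus control differences on the log2 scale for the 10 annexins and the genes of 12 cell type lists, 1 point per gene, filled where the adjusted p was under 0.05, with each list's median as a red line. The annexin median is -0.32, and the urothelial and general epithelial medians are -1.78 and -1.34.

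The genes whose levels followed Anxa9 most closely over the 6 arrays were Cds1, Upk1b, Elf3, Plet1 and Aldh1a7, with Pearson's r of 0.9984, 0.9975, 0.9974, 0.9969 and 0.9968 among all genes tested. The arrays form 2 groups and share their normalization, so these values describe likeness only and mostly restate a difference between groups. Cds1, an enzyme that makes CDP-diacylglycerol for phosphoinositides, read 7.28, 7.33 and 7.10 in Klf5-deleted samples, against 9.86, 9.26 and 9.55 in controls. Upk1b, a tetraspanin of the uroplakin plaques, and Elf3, an ETS factor of epithelia, were lower by differences of -2.35 and -1.60. The progenitor surface gene Plet1 fell by 2.73 and Aldh1a7, an aldehyde dehydrogenase gene, fell by 3.02.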

How the data were processed

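Total RNA of whole bladders was hybridised to 6 arrays, 3 per genotype. The authors deposited log2 expression values made with RMA (background correction, quantile normalization and probe summary), per the submitters' processing notes; that the scale is log2 was read from the values, which ran from 3.24 to 14.65. Which RMA version, probe annotation and genome build they used is not given in the sources used here. Of 35557 features 21789 had a single symbol; the feature with the highest mean over the 6 arrays stood for each of 19938 genes. The symbols of all 10 annexins matched RefSeq by Entrez identifier.

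Genotypes were compared with R 4.3.3 and limma 3.58.1 (two-sided moderated test without trend), and p-values were adjusted by Benjamini-Hochberg over all 19938 genes. The procedure was tested on simulated data. Exact permutation of 3 against 3 arrays cannot go below p = 0.1. These p-values reflect only how pools differ, which may be technical, and precision is limited by the number of arrays. The annexins and all lists were chosen with earlier results of these data known. The genes named were all annexins, related genes described by role, up to 4 called genes of each marker list (where none was called, up to 2 of the highest mean level), and the 5 genes most correlated with the annexin of largest difference; Epcam, Trp63, Krt5, Cldn3, Cldn7, and the partner and repair genes that did not pass were added after their values were seen. Alternatives were other scalings, filters, moderations, weights, a replicate block and leaving out each array. Figures were drawn with matplotlib 3.10.9.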

Additional observations from a re-analysis of the deposited data

How the results depend on the processing

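Anxa8 and Anxa9 passed an adjusted p of 0.05 by limma in each of 14 alternatives in which they were tested, and Anxa1 in 14 of 15, the exception being the fit without Klf5-deleted 1. In 1 alternative only genes above the median level of all genes were tested, and Anxa8 and Anxa9, which are dimmer, drop out. There 1 of 8 annexins passed the threshold, and 171 of 9969 genes fell (1.72%) and 68 rose. With 1 array left out, 2 to 3 annexins passed. Anxa6 turned to 0.0161 with arrays centred on the housekeeping genes and to 0.0836 with the mean of its features, and ran from -0.0792 to 0.0184 with 1 array left out; Anxa3 ran from -0.13 to 0.26. The genes past the threshold over all genes numbered 395, with 318 falls and 77 rises; centring on 8 housekeeping genes gave 254 falls and 139 rises. They numbered 239 among genes above the median level, 218 features among all 35557 features, and 141, 172 and 253 without Klf5-deleted 1, 2 and 3 and 165, 349 and 261 without controls 1, 2 and 3. The annexin partners past it numbered 2, and 3, with Plat added as a rise, under housekeeping centring, among genes above the median level and with robust moderation; they numbered 1 among all features and 1 to 2 with 1 array left out, and the membrane repair genes 1 to 2; trying these alternatives on the 2 lists was decided after seeing the data. Without control 2 the 2 partners were S100a6, lower, and Plat, higher. With the replicate number as a block, 110 genes and 1 partner passed, and Anxa1, Anxa8 and Anxa9 kept their calls. The deviations of same-numbered samples correlated at 0.00915, 0.0313 and 0.0787, and not every sample correlated best with its own number, so the numbers were not taken as pairs. No background call could be made, which limits what can be read from Anxa8, Anxa10 and Anxa13 and from the Klf5-deleted values of Anxa9.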
